A study of Mus musculus with 37 samples.

Results

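This report describes the CTCF loops of distal mouse chromosome 11, in hippocampal excitatory neurons, and the genes at their anchors in hippocampus with and without the histone demethylase Kdm1a. A loop belonged to the set when both of its anchors lay between position 110000000 and the chromosome end at 122082543 (mm10, GRCm38), which selected 421 of 27786 loops. The stretch was defined by the neighbourhoods of Otop2 and Tmc6, so it was chosen on measured values of these data, and every count over its genes is a description. CTCF was profiled by ChIA-PET, which ligates the ends of chromatin fragments pulled down with a CTCF antibody and counts the paired-end tags (PETs) that join a pair of sites. Its only library came from sorted GFP-positive nuclei of Camk2a-creERT2 mice with the CAG-Sun1/sfGFP reporter, male, 12 weeks old, treated with tamoxifen and without a Kdm1a deletion.

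The RNA was from whole hippocampus of 3 control and 3 Kdm1a-ifKO mice on a C57BL/6J background. In the Kdm1a-ifKO, a tamoxifen-dependent Cre under the Camk2a promoter removes floxed Kdm1a exons from forebrain excitatory neurons only. The controls carried the floxed gene without Cre, and all mice of both groups received tamoxifen at 8 weeks. Excitatory neurons share the tissue with interneurons, glia and vessels that keep Kdm1a, so a level is a mean over all of them, and fewer cells of a type cannot be told apart from less RNA per cell.

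CTCF is a zinc-finger protein that binds a long, directional DNA motif and halts cohesin as this ring-shaped complex extrudes a loop of chromatin. Loops tend to form between motifs that point toward each other, called convergent. In neurons such loops help to set which promoters and enhancers share a domain.

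The knockout itself was checked first. Kdm1a stood at 79.5, 81.1 and 79.6 CPM (counts scaled to a fixed library total) in the 3 controls and at 39.3, 36.9 and 38.4 CPM in the 3 Kdm1a-ifKOs. The groups did not overlap, and the log2 fold change of these counts over all exons, deleted and kept (log2FC, Kdm1a-ifKO over control) was -1.07 ± 0.06 (SE; adjusted p = 6.24e-08, edgeR). Library totals were 18985542 to 19469947 counts. Summed over 5 markers, excitatory neurons stood at 6265 to 6553 CPM (controls) and 6179 to 6834 CPM (Kdm1a-ifKOs), with Slc17a7 and Camk2a the most abundant, and Neurod6 was among the markers lower past the test (log2FC -0.36). Astrocyte markers rose in sum from 1351 to 1478 CPM in controls to 1625 to 1805 CPM, with all 4 above 0 in log2FC and Slc1a3 past the test. Microglia markers went from 240.7 to 264.9 CPM to 275.9 to 347.8 CPM, with 5 of 5 above 0 in log2FC and Cx3cr1 and Csf1r past the test. The part of these cells in the gene changes below was not tested.

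The letters below show what CTCF meets at the anchors the results turn on. Each line gives 40 bases read on the strand of the motif, with the core CCANNAGNNGGC in capitals (N is any base, both strands were searched). For an anchor with several matches the one nearest its midpoint is shown. Anchors at Otop2 and Otop3 come first, then those of the strongest loops, and then those of Prcd, Mxra7 and Notum loops and of the 2 sites with the most loops, by Rhbdf2 and in Rbfox3.
Otop2 and Ush1g anchor, intron of Otop2, chr11:115322471-115322510, plus strand: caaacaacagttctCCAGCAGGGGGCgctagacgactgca
Otop3 and Hid1 anchor, exon of Hid1, chr11:115354341-115354380, minus strand: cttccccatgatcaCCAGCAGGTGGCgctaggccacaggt
Sept9 left anchor, intron of Sept9, chr11:117244501-117244540, plus strand: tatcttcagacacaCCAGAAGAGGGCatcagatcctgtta
Sept9 right anchor, exon of Sept9, chr11:117358468-117358507, minus strand: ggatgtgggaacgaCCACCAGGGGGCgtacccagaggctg
Snhg20 anchor, intergenic, chr11:117073833-117073872, plus strand: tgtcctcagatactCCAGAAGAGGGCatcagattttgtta
Partner of the Snhg20 anchor, intergenic, chr11:117177515-117177554, minus strand: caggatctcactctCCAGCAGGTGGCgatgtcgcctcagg
Foxj1 and Exoc7 anchor, intergenic, chr11:116319151-116319190, plus strand: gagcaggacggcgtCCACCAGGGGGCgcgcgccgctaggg
Ubald2 anchor, intron of Qrich2, chr11:116446184-116446223, minus strand: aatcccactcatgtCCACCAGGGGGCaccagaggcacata
Dus1l and Gps1 anchor, intergenic, chr11:120773525-120773564, plus strand: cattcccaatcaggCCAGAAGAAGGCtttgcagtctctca
Cygb and Prcd anchor, intergenic, chr11:116641357-116641396, minus strand: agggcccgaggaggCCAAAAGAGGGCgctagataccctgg
Mxra7 anchor, intron of Mxra7, chr11:116808433-116808472, minus strand: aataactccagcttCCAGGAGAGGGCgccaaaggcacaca
Rhbdf2 anchor, intergenic, chr11:116627752-116627791, plus strand: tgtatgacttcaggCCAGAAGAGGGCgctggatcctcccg
Partner of the Notum anchor, intron of Cenpx, chr11:120712854-120712893, minus strand: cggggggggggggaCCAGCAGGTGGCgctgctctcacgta
Rbfox3 anchor site, intron of Rbfox3, chr11:118739051-118739090, minus strand: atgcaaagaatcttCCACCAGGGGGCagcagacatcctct

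The pairs at Otop2 and Otop3 and at Foxj1 and Ubald2 point toward each other, plus on the left and minus on the right, with no motif on another strand in these anchors. The Sept9 and Snhg20 loops have no readable orientation, since the left Sept9 anchor held 4 plus and 1 minus motifs, the Snhg20 anchor 5 plus and 1 minus, and its partner 2 plus and 1 minus, of which the minus motif is the one shown. The Prcd and Mxra7 anchors both carry a minus motif, a tandem pair. The word CCAGAAGAGGGC appears at the left Sept9, the Snhg20 and the Rhbdf2 anchors. Of 197 core motifs at distinct positions in the anchors of the stretch, 47 were this word, and all 47 of them lay in sequence that the RefSeq genome marks as repeat. In all, 68 of the 197 motifs (34.5%) lay in such repeats, and the class of the repeats was not looked up.

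A core motif was present in 372 of 839 distinct anchors (44.3%), against 39.4% of 54641 anchors elsewhere in the genome and 11.3% of 8314 windows of 1312 bases in the stretch that touched no anchor. These measures are unlike, since anchors of different coordinates can overlap and share a motif. The 839 were 0.521 to 16.557 kb wide, unlike the windows, and had a median GC content of 51.8%, against 48.2% for anchors elsewhere. Outside repeats, the share was 32.9% for these anchors and 30.0% elsewhere. No match says only that these letters were not in the anchor. Motifs stood more often on the plus than on the minus strand, 114 against 83 positions.

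Orientation could be read for 72 loops that had motifs on a single strand at each anchor. Of these, 32 were convergent (44.4%, exact binomial 95% interval 32.7 to 56.6, counting error only), 25 had plus motifs at both anchors, 11 had minus motifs at both, and 4 pointed apart. Elsewhere 2012 of 3723 such loops (54.0%) were convergent, a share inside that interval. The interval takes loops as independent, though many share an anchor site, and is not a test. With at least 10 PETs the share was 62.5% (15 of 24) here and 63.8% elsewhere. Counting only motifs outside repeats, 18 of 37 loops (48.6%) were convergent, and 10 of 11 (90.9%) at 10 PETs or more, beside 68.1% of 1159 elsewhere.

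**Figure D1:**
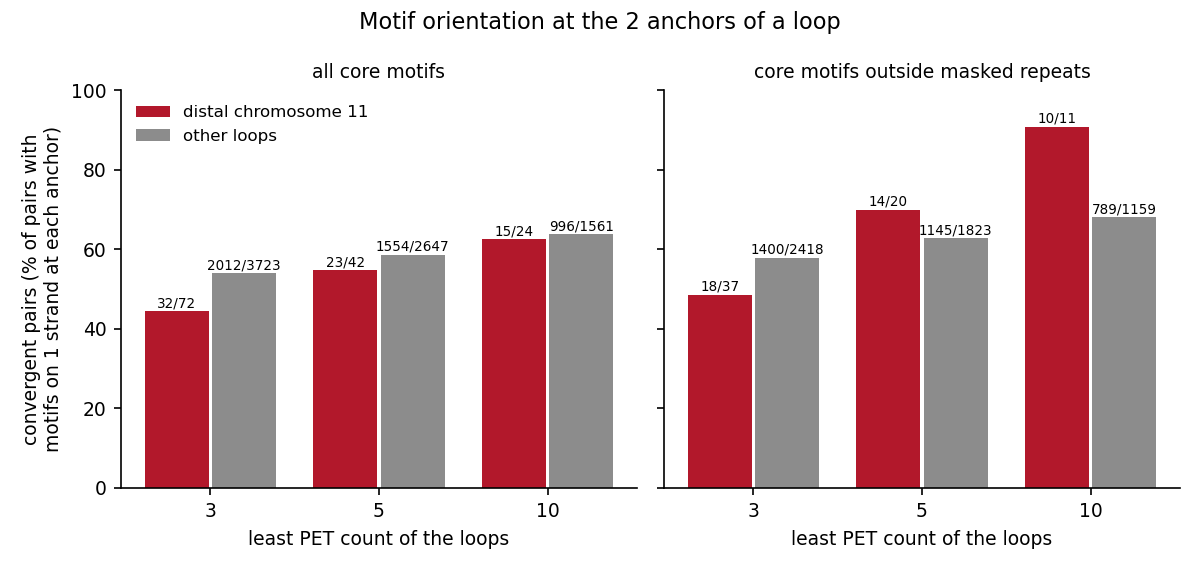
Share of loops with convergent core motifs among those with motifs on a single strand at each anchor, in percent, for loops of at least 3, 5 or 10 PETs. Red bars are distal chromosome 11 and grey bars all other loops, with the number of loops above each bar, and the left panel uses all motifs (44.4% at 3 PETs, 62.5% at 10) while the right panel leaves out motifs in masked repeats (48.6% and 90.9%).

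Of the promoters under an anchor, 2 are shown, from the Otop2 and the Tmc6 neighbourhood. RefSeq lists a second Otop2 start inside the anchor that also covers the start of Ush1g, and its 300 bases at chr11:115322280-115322579 (GRCm38.p6, plus strand) hold the Otop2 motif given above, in capitals here, and 11 CpG dinucleotides.
Otop2 inner promoter: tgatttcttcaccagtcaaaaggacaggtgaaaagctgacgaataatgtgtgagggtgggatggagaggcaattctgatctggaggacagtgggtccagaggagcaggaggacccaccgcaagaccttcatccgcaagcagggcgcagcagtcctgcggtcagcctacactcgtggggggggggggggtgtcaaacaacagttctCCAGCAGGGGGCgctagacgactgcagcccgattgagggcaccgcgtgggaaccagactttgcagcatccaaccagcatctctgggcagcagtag
The shared start of Afmid and Tk1 lies under the anchor of 19 PETs that loops to the end of Sept9. The Afmid promoter at chr11:117825669-117825968 (plus strand) has 18 CpG dinucleotides and no core motif.
Afmid promoter: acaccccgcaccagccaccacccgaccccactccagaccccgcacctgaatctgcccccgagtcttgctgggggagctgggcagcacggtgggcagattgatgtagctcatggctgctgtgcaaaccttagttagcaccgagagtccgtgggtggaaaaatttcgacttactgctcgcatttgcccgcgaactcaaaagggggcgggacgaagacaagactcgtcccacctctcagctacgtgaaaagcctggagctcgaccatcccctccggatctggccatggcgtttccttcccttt
Of 66 promoters of the stretch that overlap an anchor, 8 hold a core motif (12.1%), beside 5 of 242 that overlap none (2.07%) and 2.43% of 32851 mouse promoters of this length. The 8 are those of Kcnj2, Rpl38, Nat9, Otop2, Mgat5b, Gaa, Gm11753 and Gm11762.

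Loops were dense here. The 12.08 Mb held 34.8 loops per Mb, against 20.6 on the rest of chromosome 11 and 10.4 over the whole genome outside the stretch, and chromosome 11 ranked first of all chromosomes at 22.0 per Mb. Tested genes were dense as well, 17.2 per Mb against 6.31, so that there were 2.02 loops per tested gene here and 1.65 elsewhere.

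Spans ran from 8.38 kb to 6543 kb between anchor midpoints, with a median of 89.5 kb (order-statistic 95% interval 74.4 to 100.9) and quartiles of 39.6 and 169.6 kb. The rest of chromosome 11 had a median of 88.4 kb, inside that interval, and the rest of the genome one of 115.9 kb (113.7 to 118.0), above it. Loops over 500 kb were 21 of 421 (4.99%), against 10.3% elsewhere, and 68 loops (16.2%) were under 25 kb, against 15.8% elsewhere.

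PET counts had a median of 5, as in the rest of chromosome 11 and of the genome. They reached 285, summed to 4614, and were at the deposited minimum of 3 in 133 loops. At least 5 PETs were counted in 212 loops, at least 10 in 94 and at least 50 in 16, 3.8% of the set against 3.52% elsewhere. Loops of 10 PETs or more had a median span of 75.5 kb and those of 3 PETs one of 86.9 kb. With a single library these counts have no replicate.

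**Figure D2:**
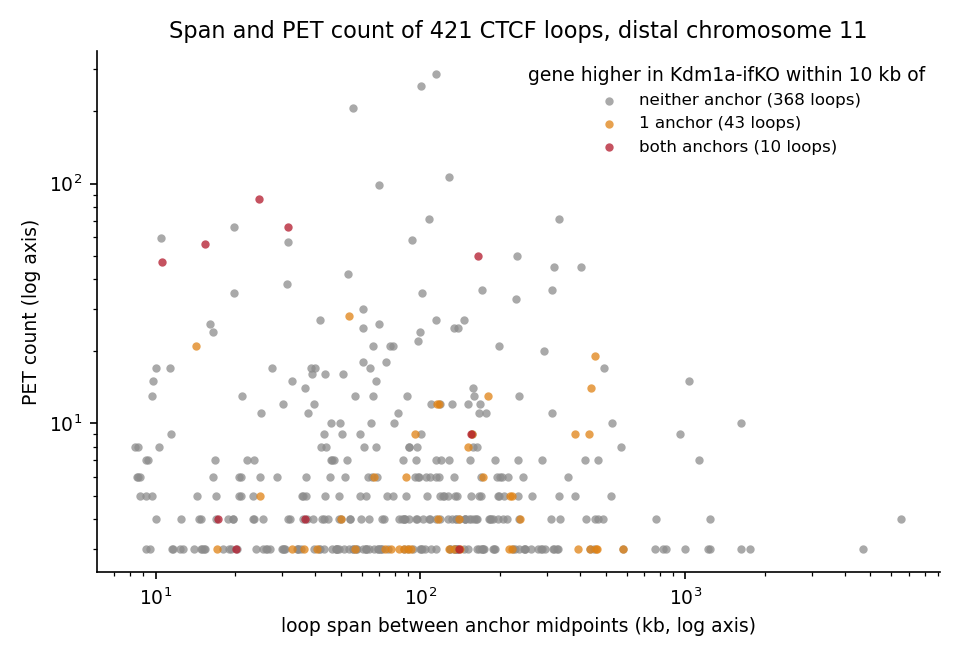
PET count against span in kb (both log axes) for the 421 loops, coloured by whether a gene higher in Kdm1a-ifKO lies within 10 kb of neither (368), 1 (43) or both (10) anchors. The middle of the cloud lies at 3 to 9 PETs and at 39.6 to 169.6 kb (quartiles), and 5 of the 10 red loops have 10 PETs or more.

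The strongest loop, of 285 PETs and 114.8 kb, had both anchors in Sept9, which encodes a septin of the cytoskeleton. The next, of 255 PETs and 100.9 kb, started near the noncoding RNA Snhg20. A loop of 207 PETs and 55.6 kb joined the compact cluster of Lrrc45, Rac3 and Dcxr to Rfng, Gps1 and Dus1l. A loop of 106 PETs and 128.4 kb joined Foxj1 and Exoc7 to Ubald2, and one of 99 PETs and 70.0 kb joined Tmem104 to Grin2c, Fdxr and Fads6. Of the 19 tested genes at these 10 anchors, 2 were past an adjusted p of 0.05 at any fold, beside 8.85% of all tested genes. They were Sept9 (log2FC 0.23 ± 0.06, adjusted p = 0.0214, edgeR) and Rac3 (-0.37 ± 0.10, adjusted p = 0.0369), both changed by less than 0.5. Sept9 did not stay under an adjusted p of 0.05 without control replicate 2 or Kdm1a-ifKO replicate 1 or 3 (adjusted p 0.0505 to 0.137). Foxj1, the master regulator of motile cilia, stood at 0.01 ± 0.18 and Grin2c, an NMDA receptor subunit, at 0.20 ± 0.07 (adjusted p = 0.0898).

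The longest contact, of 6543 kb and 4 PETs, ran from near Map2k6 to near Gm11728, and the next, of 4672 kb and 3 PETs, ended at Csnk1d. Of the 10 loops over 1 Mb, 7 had an anchor between 111530749 and 111654262, upstream of Sox9. At the near edge, the first loop inside spanned 87.0 kb with 4 PETs. Of 8 loops that crossed position 110000000 and were left out, 7 were contacts of 20904 to 111477 kb with 3 to 5 PETs, and the nearest spanned 398.2 kb with 5 PETs.

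Merging overlapping anchors gave 245 sites with a median of 3 loops, 61 of them with a single loop and 9 with 10 or more. The busiest, with 14 loops and 152 PETs, lay in Rbfox3, which encodes the neuronal splicing factor NeuN. The next, with 13 loops and 113 PETs, lay by Rhbdf2, a regulator of growth factor shedding, and 3 sites with 11 loops each lay at Dnaic2, Dnah17 and Tha1. Rbfox3 was at 25 loops, 12 of them with both anchors, and its log2FC was 0.11 ± 0.05 (adjusted p = 0.229). Rhbdf2 had means of 1.35 CPM (controls) and 2.27 CPM (Kdm1a-ifKOs; log2FC 0.74 ± 0.24, adjusted p = 0.074).

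By position, 193 of the 839 anchors (23.0%) lay within 1 kb of an annotated start site, 206 (24.6%) over another exon, 186 (22.2%) only in introns and 254 (30.3%) between genes. Elsewhere 18.7% were at start sites and 34.3% between genes. A start site stood at both anchors of 22 loops, at 1 anchor of 149 and at neither of 250, with median spans of 87.9, 76.6 and 99.8 kb.

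Taken as the stretch covered without a gap by loops, the set fell into 2 domains, because the few very long contacts bridge the rest. The first held 420 loops from 110409752 to 121238043, and the second a single loop of 334.0 kb and 5 PETs around Metrnl. Loops of at most 1 Mb gave 11 domains, those of at least 5 PETs 27 and those of at least 10 PETs 33. In the 1 Mb version, the domain of Otop2 ran for 2.42 Mb from 113174741 to 115595927 with 94 loops and 945 PETs, and that of Tmc6 for 2.22 Mb from 115611417 to 117827021 with 129 loops and 1840 PETs. These neighbours are 15.5 kb apart. The domain of Notum spanned 0.313 Mb with 25 loops and 421 PETs.

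Called genes are given per domain of at most 1 Mb loops as a description, with no test, beside the 3.15% of all tested genes that were called higher. There were 3 of 38 in the Otop2 domain, 8 of 61 in the Tmc6 domain, 0 of 12 in the next one with Dnah17 and Rbfox3, 1 of 29 in that of Sgsh and 3 of 26 in that of Notum. Of the smaller domains, those of Gm11681 (1 of 3), Slc16a3 (1 of 6) and Metrnl (1 of 2) held 1 each, and the other 3 held none. The domain ends cut between neighbours, since the Tmc6 domain stopped at 117827021, inside Afmid, and Birc5 began at 117849251 in the gap of 40.8 kb that followed.

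**Figure D3:**
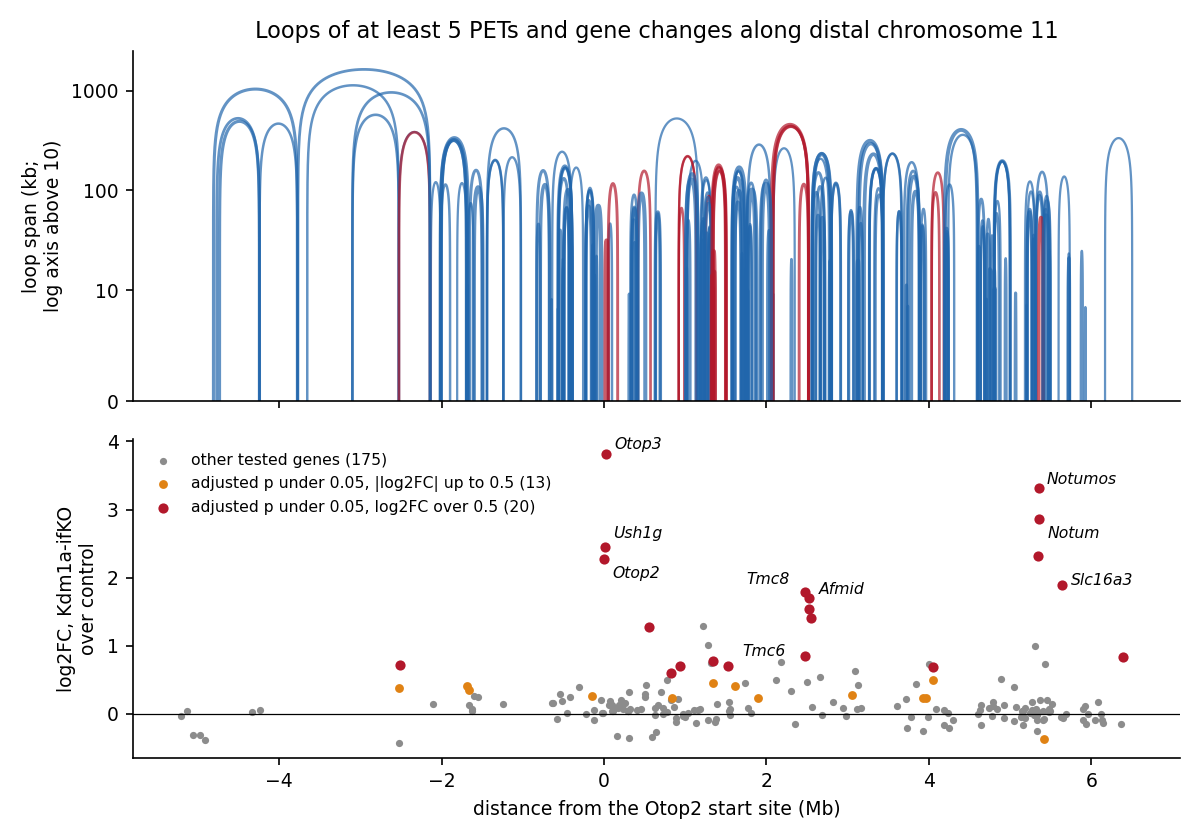
Upper panel, loops of at least 5 PETs drawn as arcs whose height is the span in kb (log axis above 10), red where a gene higher in Kdm1a-ifKO lies at an anchor and blue otherwise. Lower panel, log2FC of the 208 tested genes at their start sites, both against distance from the Otop2 start in Mb, with the 20 called genes in red, among them groups at Otop2, at Tmc6 and at Notum.

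Of 358 annotated genes in the stretch, 239 were within 10 kb of an anchor and 172 of those had enough counts to be tested. At an adjusted p under 0.05 and a log2FC over 0.5, 16 of the 172 anchor genes (9.3%) were higher in Kdm1a-ifKO, beside 3.15% of the 16799 genes tested in all. None was lower by that measure with edgeR or with DESeq2, beside 0.28% in all. An unadjusted p under 0.05 (edgeR), in either direction, was found for 53 of the 172 and for 4108 of all 16799. At an adjusted p under 0.05 and any fold, 28 of the 172 were higher and 1 lower, beside 6.04% and 2.82%. The median log2FC of the 172 was 0.08 and that of all tested genes was -0.00342. Nothing is read from these counts, as the stretch was chosen for its genes. Called genes were picked on the same libraries, so groups that do not overlap, as given for them below, largely follow from the call. Of the 36 tested genes of the stretch that were at no anchor, 4 were higher, namely Trim47, Birc5, Slc16a3 and Metrnl. Across the genome 3.78% of 9540 tested anchor genes and 2.33% of 7259 others were higher. By the number of loops at a gene, 5 of 47 genes (10.6%) were called at 1 to 3 loops, 6 of 62 (9.68%) at 4 to 6 and 5 of 63 (7.94%) at 7 or more, with no test.

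The genes that rose were weakly expressed. Their median control level was 1.13 TPM (counts scaled to exon length and then to a fixed total), against 21.3 TPM for all tested anchor genes. At the far anchors of their loops stood 51 different tested genes, of which 9 were themselves among the 16. All 51 had a median of 18.2 TPM in controls. The other 42, left once the called genes were taken out, had a median of 29.3 TPM. Both this level and their median log2FC of 0.07 follow in part from that removal, as do the 3 members past an adjusted p of 0.05 (Cygb, Sept9 and Rac3). Of all 51, 12 were past it at any fold, beside 8.85% of all tested genes, and the median log2FC was 0.09. In 5 loops the 2 anchors held 2 different genes that rose, with spans of 31.5 to 165.4 kb and 132 PETs in sum. These joined Otop2 and Ush1g with Otop3, Prcd with Mxra7 by 3 loops, and Tmc6 and Tmc8 with Tk1 and Afmid.

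**Figure D4:**
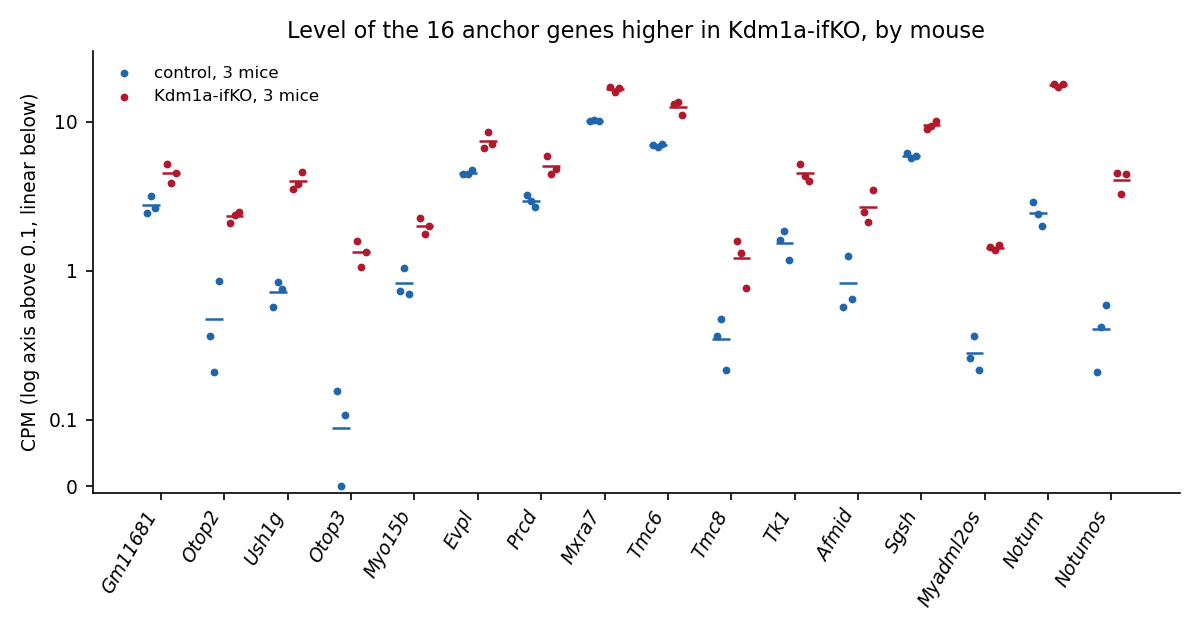
CPM of the 16 anchor genes higher in Kdm1a-ifKO, each point a mouse and each bar a group mean (3 controls in blue, 3 Kdm1a-ifKOs in red; log axis above 0.1, linear below). The groups overlap for none of the 16, which largely follows from their choice by the test in these same mice. Levels run from 0 CPM for Otop3 in a control to 17.9 CPM for Notum.

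The Otop2 neighbourhood was selected by its own change, so its values are given without a test. Otop2 and Otop3 encode otopetrins, proton channels of the plasma membrane, and Ush1g encodes a scaffold protein of hair cell stereocilia whose loss causes Usher syndrome. Otop2 had 7, 4 and 16 counts in the controls and 41, 47 and 48 in the Kdm1a-ifKOs, or 0.366, 0.21 and 0.86 CPM against 2.11, 2.39 and 2.46 CPM. The third control was the highest of its group and still under every Kdm1a-ifKO. The log2FC was 2.27 ± 0.36, and 2.98 without control replicate 3.

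Ush1g, which lies within Otop2 on the other strand, stood at 0.575, 0.84 and 0.752 CPM in controls and 3.55, 3.81 and 4.62 CPM in Kdm1a-ifKOs (log2FC 2.46 ± 0.23). Otop3 had 3, 0 and 2 counts in controls and 31, 21 and 26 in Kdm1a-ifKOs, with a log2FC of 3.82 ± 0.52 that rests on 5 control counts and was 4.49 without control replicate 1. No group of these 3 genes overlapped the other. The strand setting of the counting is not given in the sources used here, so reads of Otop2 and Ush1g in their shared stretch cannot be told apart.

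The loop between these genes was among the 10 strongest of the stretch. It joined an anchor at 115321098 to 115324277, over the start of Ush1g and the inner start of Otop2, to one at 115350020 to 115358450, behind Otop3 and in Hid1, by 66 PETs over 31.5 kb, with Otop3 inside. From the left anchor 4 further loops of 3 PETs reached Hid1, Mrpl58 and Atp5h at 36.4 to 89.5 kb, and from the right anchor site 10 loops left in all, the strongest other one with 12 PETs to Slc16a5 and Armc7 at 117.2 kb. Hid1, a sorting factor of dense-core vesicles, was at 115.9 TPM in controls and moved by 0.13 ± 0.05 (adjusted p = 0.147). Slc16a5 stood at a log2FC of -0.33 (adjusted p = 0.583), and none of the other genes at the far anchors passed the test.

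**Figure D5:**
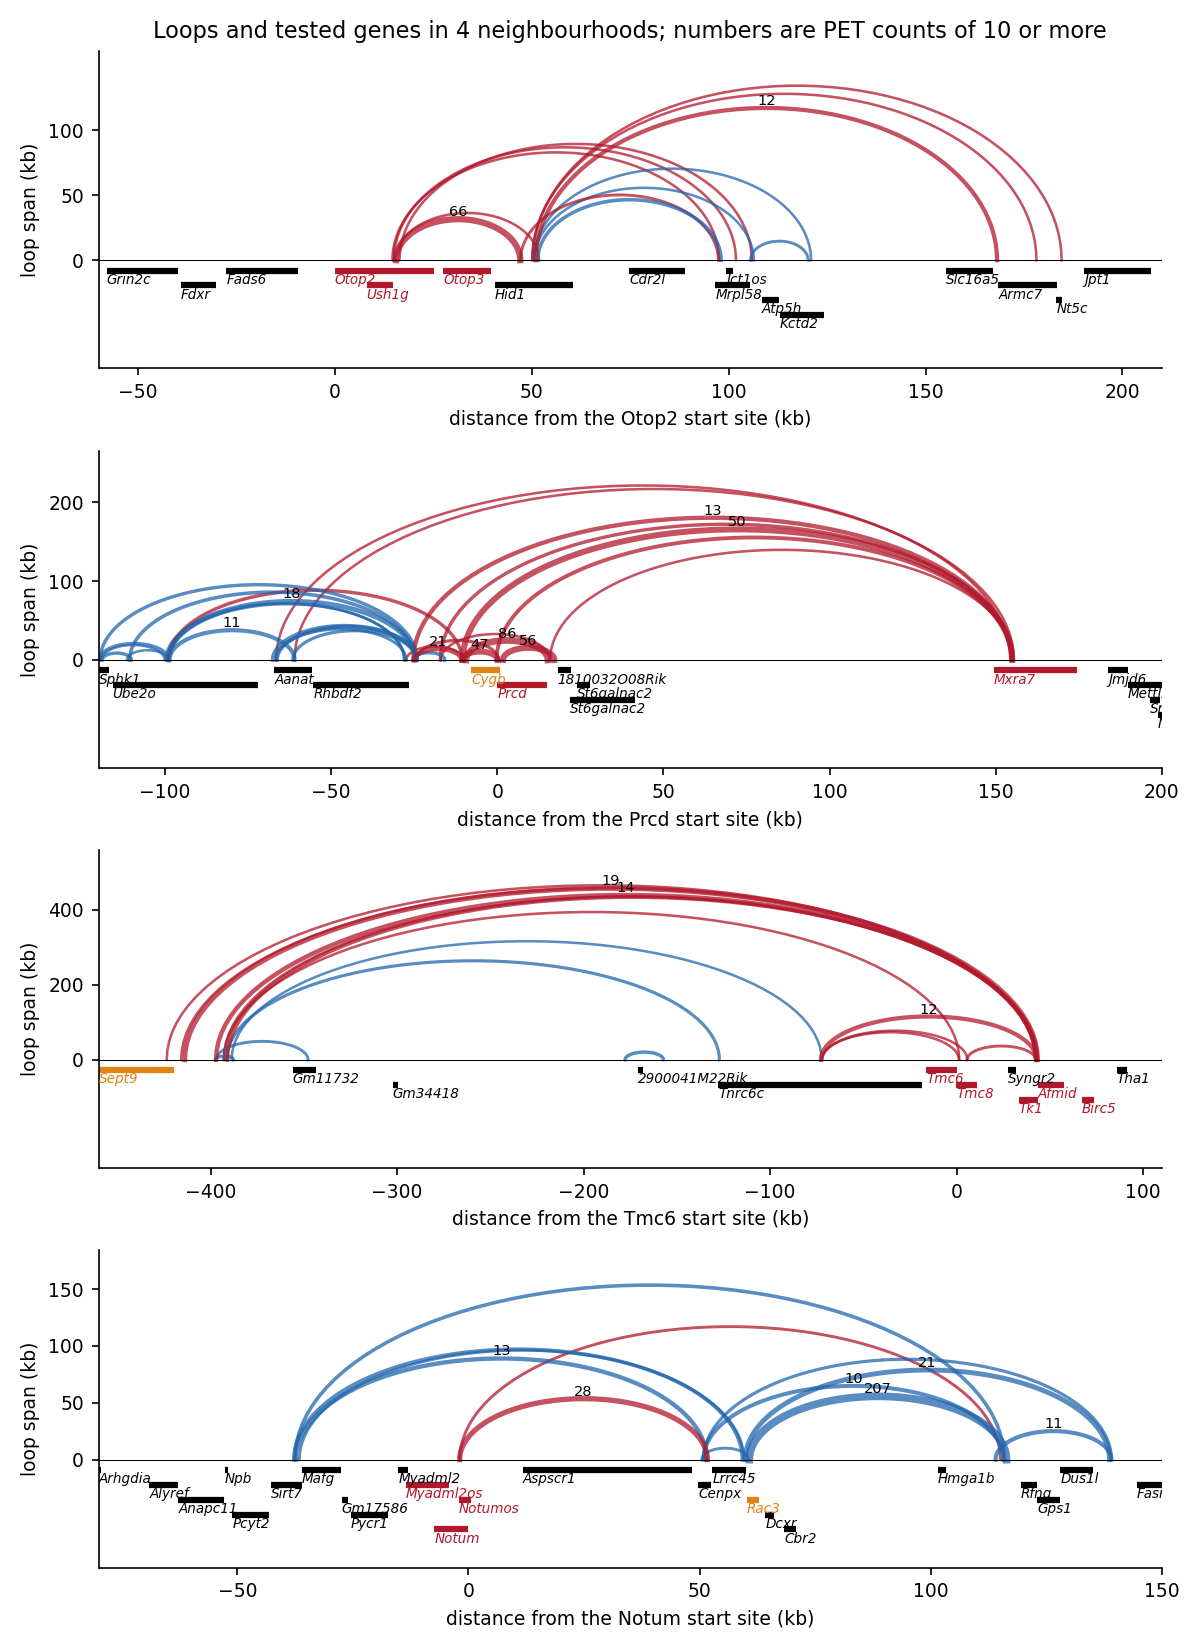
Loops (arcs, height is the span in kb, thicker with more PETs, PET counts of 10 or more printed) and tested genes (bars) against distance in kb from the start of Otop2, Prcd, Tmc6 and Notum. Red arcs have a gene higher in Kdm1a-ifKO at an anchor, red bars are such genes, orange bars have an adjusted p under 0.05 with a smaller change, and the loop of 66 PETs joins Otop2 and Ush1g with Otop3 while that of 28 PETs leaves Notum.

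The Tmc6 neighbourhood, which also defined the stretch, is described the same way. Tmc6 and Tmc8 encode transmembrane channel-like proteins of the endoplasmic reticulum that bind zinc transporters. Tmc6 stood at 7.01, 6.83 and 7.09 CPM in controls and 13.1, 13.6 and 11.1 CPM in Kdm1a-ifKOs (log2FC 0.85 ± 0.11). Tmc8 had 7, 9 and 4 counts against 31, 26 and 15 (log2FC 1.78 ± 0.40). Controls lay under Kdm1a-ifKOs for both genes, which overlap at their starts on opposite strands.

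Downstream, Tk1 encodes the thymidine kinase of dividing cells and Afmid the kynurenine formamidase of tryptophan breakdown, a pair that also overlaps head to head. Tk1 was at 1.62, 1.84 and 1.182 CPM in controls and 5.24, 4.31 and 4.01 CPM in Kdm1a-ifKOs (log2FC 1.54 ± 0.21). Afmid was at 0.575, 1.26 and 0.645 against 2.47, 2.13 and 3.49 CPM (log2FC 1.70 ± 0.31). Birc5, the cell division factor survivin, had no anchor within 10 kb and was at 1.15, 1.10 and 1.182 against 3.39, 2.39 and 3.39 CPM (log2FC 1.41 ± 0.22). For each of the 3 genes every Kdm1a-ifKO was above every control.

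Tk1 and Afmid were at 8 loops with 67 PETs in sum, of which the strongest, with 19 PETs, ran 457.3 kb back to the end of Sept9, and another, with 12 PETs, 115.5 kb back to Tnrc6c. Tmc6 and Tmc8 were at 4 loops of 3 or 4 PETs, among them the 36.7 kb loop to Tk1 and Afmid. Neither anchor of that loop, nor of the 457.3 kb loop, held a core motif. Tnrc6c, a silencing factor of the microRNA pathway, was at 53.3 TPM and moved by -0.15 ± 0.05 (adjusted p = 0.0912), and Syngr2, between Tmc8 and Tk1, by 0.46 ± 0.18 (adjusted p = 0.139).

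Notum lies near the far end of the stretch and encodes a secreted lipase that inactivates Wnt proteins by removing their lipid. It was at 2.88, 2.41 and 1.99 CPM in controls and 17.9, 17.0 and 17.9 CPM in Kdm1a-ifKOs (log2FC 2.85 ± 0.13, adjusted p = 1.76e-08, edgeR). Notumos, the noncoding gene that overlaps it on the other strand, rose by 3.32 ± 0.30 and Myadml2os, another antisense gene over its end, by 2.32 ± 0.33 on the log2 scale. All Kdm1a-ifKO libraries were above all controls for the 3 genes, whose shared reads cannot be assigned without strand.

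A loop of 28 PETs and 53.6 kb ran from an anchor over the start of Notum, at 120657157 to 120661379, to one by Aspscr1, Cenpx, Lrrc45 and Rac3, and a loop of 4 PETs ran 117.0 kb to Rfng and Gps1. Rac3 was the only anchor gene that was lower with an adjusted p under 0.05. It stood at 17.3, 17.4 and 16.9 CPM in controls and 11.4, 14.8 and 13.8 CPM in Kdm1a-ifKOs, where leaving out any library but Kdm1a-ifKO replicate 2 took its adjusted p above 0.05 (0.0543 to 0.132). Lrrc45 (0.03 ± 0.05), Cenpx (-0.09 ± 0.13) and Aspscr1 (0.20 ± 0.08) did not pass. Of the 8 genes fixed as Notum and its neighbours, Notum alone passed the test, and the median log2FC of the list was 0.02. Slc16a3, a lactate exporter, was at no anchor but inside 4 loops, and rose from 2.04, 2.36 and 2.31 to 7.82, 8.53 and 8.52 CPM (log2FC 1.89 ± 0.15, adjusted p = 2.47e-06, edgeR).

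Among loops that join different genes that rose, the one between Prcd and Mxra7 came next in PETs after that of Otop2 and Otop3. Prcd is a small protein of photoreceptor discs and Mxra7 a matrix remodelling associated protein. Mxra7 was at 10.1, 10.3 and 10.1 CPM in controls and 17.2, 15.8 and 16.9 CPM in Kdm1a-ifKOs (log2FC 0.71 ± 0.09, adjusted p = 0.000195, edgeR). Prcd was at 3.24, 2.94 and 2.69 against 5.91, 4.47 and 4.83 CPM (log2FC 0.78 ± 0.17, adjusted p = 0.0122, and 0.0632 without Kdm1a-ifKO replicate 1). The groups were apart for both.

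The loop had 50 PETs and 165.4 kb, and 2 more of 9 and 3 PETs joined the same genes. Within the Prcd and Cygb pair lay loops of 86, 56 and 47 PETs that spanned 24.7, 15.4 and 10.6 kb. Cygb, the oxygen-binding cytoglobin, overlaps Prcd on the other strand. It went from 64.4, 70.8 and 61.0 to 92.8, 87.0 and 89.0 CPM (log2FC 0.45 ± 0.06, adjusted p = 0.000489). The Rhbdf2 site upstream reached both Prcd, by 21 PETs over 14.2 kb, and Mxra7, by 13 PETs over 180.2 kb.

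Elsewhere, single genes rose at the ends of weaker loops. Evpl, an envoplakin of the cornified envelope, stood at 4.50, 4.46 and 4.73 against 6.63, 8.58 and 7.14 CPM (log2FC 0.71 ± 0.14, adjusted p = 0.00706), with a strongest loop of 6 PETs to Galr2 and Exoc7. Myo15b, an unconventional myosin, stood at 0.732, 1.05 and 0.699 against 2.26, 1.78 and 2.0 CPM (log2FC 1.28 ± 0.26, adjusted p = 0.00773), with 9 PETs to a site without a tested gene. Sgsh, the lysosomal heparan sulfatase, stood at 6.17, 5.72 and 5.86 against 9.0, 9.34 and 10.1 CPM (log2FC 0.68 ± 0.12, adjusted p = 0.00238), with 9 PETs to Rnf213. Each had its 3 Kdm1a-ifKOs above its 3 controls.

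Gm11681, a noncoding RNA by Sox9, was at 2.46, 3.20 and 2.63 against 5.24, 3.91 and 4.52 CPM (log2FC 0.72 ± 0.18, adjusted p = 0.0247). It lost its call without control replicate 1 or 3 or Kdm1a-ifKO replicate 1 or 3, with adjusted p from 0.058 to 0.105. Sox9, a transcription factor of glial progenitors and astrocytes, was at 6 loops. It stood at 22.4, 23.6 and 25.7 against 29.7, 32.2 and 31.8 CPM (log2FC 0.38 ± 0.07, adjusted p = 0.00562), beside the astrocyte marker sums given above. Trim47 and Metrnl, at no anchor, had log2FCs of 0.59 ± 0.17 and 0.83 ± 0.13, and the call of Trim47 was lost when any 1 library was left out (adjusted p 0.065 to 0.133).

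Gene groups of the stretch are given as counts past the test at any fold, beside 6.04% of all tested genes higher and 2.82% lower. The 3 genes Otop2, Otop3 and Ush1g and the channel-like pair Tmc6 and Tmc8 were all higher, but they are the genes around which the stretch was drawn. None of the 7 tested genes listed under cilia and axoneme passed, with a median log2FC of 0.01. They were Foxj1, Dnah17, Fbf1, Cep131, Lrrc45, Ten1 and Bahcc1. Ten1 and Bahcc1 have other main roles, and the list leaves out other cilia genes of the stretch such as Dnaic2. Of 5 tested genes listed under proliferation and survival, a loose grouping, Tk1 and Birc5 rose. Socs3 (0.55 ± 0.21, adjusted p = 0.133), Sphk1 (1.29 ± 0.76, adjusted p = 0.374, with Kdm1a-ifKO replicate 2 at 5.69 CPM, above every other library) and Pgs1 (-0.01 ± 0.06) did not pass.

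Of 6 tested epithelial genes, Evpl and Trim47 rose, all 6 had a log2FC above 0, and the median was 0.50. Of 5 carriers, Slc16a3 rose. Of 11 tested lysosomal and metabolic genes, Sgsh, Afmid and Gaa rose, Gaa by 0.23 ± 0.05 (adjusted p = 0.0177, and 0.0524 to 0.0948 without control replicate 2 or Kdm1a-ifKO replicate 1 or 3), and Fasn stood at 0.14 ± 0.06 (adjusted p = 0.133). Of 6 genes around Sox9 and the Kcnj2 potassium channel, Sox9 rose, and of the 2 tested CD300 immunoreceptors neither passed. Of 14 tested genes listed under neuronal and synaptic, a loose grouping, Sstr2 (0.40 ± 0.10), Mgat5b (0.40 ± 0.06) and Cygb rose. So did Cacng5 (0.50 ± 0.11), which lies outside the stretch. Sstr2 kept an adjusted p under 0.05 only without control replicate 1, with adjusted p of 0.0529 to 0.117 without any other library. All 14 had a log2FC above 0, like the 6 epithelial genes, beside 71.2% of the 208 tested genes of the stretch and 49.1% of all tested genes. Rbfox3, Nptx1 (0.01 ± 0.07) and Baiap2 (0.12 ± 0.06) did not pass. The median log2FC over all tested genes was -0.00342, beside 0.22 for the neuronal and 0.13 for the lysosomal list.

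The genes of the loop machinery lie elsewhere in the genome. Of 10, none was higher, and Pds5b, a cohesin regulator, was lower (115.3, 120.9 and 146.7 CPM against 99.8, 99.3 and 100.0 CPM, log2FC -0.36 ± 0.08, adjusted p = 0.0199, edgeR). All 10 had a log2FC below 0 with a median of -0.09, while 8251 of all 16799 tested genes were above 0. Of the 10, 3 had an unadjusted p under 0.05 (edgeR), beside 4108 of the 16799. Wapl (-0.21 ± 0.07, adjusted p = 0.0894), Nipbl (-0.25 ± 0.12, adjusted p = 0.228) and Stag1 (-0.16 ± 0.06, adjusted p = 0.128) did not pass. Control replicate 3 was the highest library for Nipbl (47.8, 49.1 and 65.4 CPM in controls), Stag2 (56.1, 62.3 and 73.5 CPM) and Pds5b, but not for Ctcf or Smc1a. Values without it are not given here for these genes. Ctcf had mean levels of 83.9 CPM (controls) and 83.1 CPM (Kdm1a-ifKOs) (-0.01 ± 0.06), and Rad21 of 114.9 and 114.8 CPM (-0.00101 ± 0.06). Loops themselves were measured only in mice with Kdm1a, so their state in the Kdm1a-ifKO is not known from these data.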

How the data were processed

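RNA was measured in 6 hippocampus libraries, 1 per mouse, and CTCF contacts in 1 library of sorted nuclei. Per the labels, the RNA counts were made by the authors with cutadapt 1.18, HISAT2 2.1.0 on mm10 and HTSeq 0.11.1, as whole reads per gene, with no strand setting given in the sources used here. The deposited PET counts are whole numbers per loop, made by the authors with ChIA-PIPE, a loop needing no fewer than 3 PETs and CTCF peaks under its anchors.

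Of 48795 gene IDs, 99.09% matched the annotation. In R 4.3.3, edgeR 4.0.16 (filterByExpr, TMM, robust quasi-likelihood F test, Benjamini-Hochberg over 16799 genes) compared 3 Kdm1a-ifKOs with 3 controls, and DESeq2 1.42.0 was an alternative. A gene was called higher at an adjusted p under 0.05 and a log2FC over 0.5. CPM scale counts to a library's total, and TPM also to exon length. A gene was at an anchor when its body lay within 10 kb. Loop measures used Python 3.11.15 with pandas 2.3.3, numpy 2.4.6 and scipy 1.17.1, and have no test. The scripts were tested on simulated data.

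The members and gene lists were chosen with earlier results of these data known. Genes named are Kdm1a, those that define the stretch, called anchor genes, list members, genes at the strongest, longest and busiest loops, and the partners of called genes. Other names (Birc5, Slc16a3, Trim47, Metrnl and markers) were chosen after their values were seen. Alternatives were another tool or scaling, no filter, leaving out each library, other distances, PET minimums and motifs. The mice were separate animals. Some genes are not reported here.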

Additional observations from a re-analysis of the deposited data

How the results depend on the processing

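The count of 16 anchor genes higher in Kdm1a-ifKO was 16 with DESeq2 or its size factors, 20 with no filter and 15 to 17 without each library in turn, and 0 were lower throughout (0 to 0). It was 9 with start sites within 5 kb of the anchor (8.91% of 101 genes) and 10 with loops of at least 10 PETs (8.55% of 117), both from fewer genes. The log2FC of Kdm1a lay between -1.09 and -1.05 without each library. The number of domains moved from 2 to 11 with loops of at most 1 Mb, to 27 with at least 5 PETs, to 33 with at least 10 and to 27 with the first and the second together, an alternative chosen after seeing the data, like the motifs outside repeats. The convergent share moved from 44.4% to 62.5% with at least 10 PETs.

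Same-numbered libraries did not deviate together (correlations of -0.03, -0.09 and -0.14), so the numbers do not pair them. With the replicate block, 15 anchor genes were higher, 0 lower, and Kdm1a stood at -1.07. Of 33 genes with an adjusted p under 0.05, 7 lost it with the block and 4 with DESeq2 (Gm11681, Trim47, Mrpl38 and Rac3). Tmc8 had an adjusted p of 0.07 without Kdm1a-ifKO replicate 1, which also took 12 of the 33 above 0.05. With a single ChIA-PET library, variation between mice and between libraries is unmeasured for every loop value. Control counts of 0 to 16 limit Otop2, Otop3 and Tmc8.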

Other observations

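Other cell types of the tissue gave these values. Interneuron markers summed to 788 to 856 CPM in controls and 766 to 799 CPM in Kdm1a-ifKOs, and oligodendrocyte markers to 4064 to 4449 and 3855 to 4964 CPM. Of the 4 choroid plexus markers, Kl, a co-receptor of FGF23, rose from 23.8, 22.5 and 26.9 CPM to 60.6, 56.4 and 60.02 CPM (log2FC 1.27 ± 0.07, adjusted p = 1.32e-07, edgeR). Ttr, the defining transcript of that tissue, stood at 32.0, 10.7 and 7.04 CPM in controls and 3.29, 6.24 and 8.16 CPM in Kdm1a-ifKOs, with overlapping groups. Its log2FC was -1.49 ± 0.77, and it did not pass (adjusted p = 0.337, edgeR). Clic6 (-0.85 ± 0.38) and Folr1 (0.12 ± 0.37) did not pass either, so Kl alone of these markers did. No ependyma or endothelial marker passed the test of edgeR.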
